A study of Mus musculus with 12 samples.

Results

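Resident macrophages of the adrenal were followed through 10 genes: Csf1r, Mrc1, Cd163, Lyve1, Folr2, Ms4a7, Cd84, Aif1, Tyrobp and Cx3cr1. The members are the genes that carry these symbols in the deposited table, 10 of 39017 genes, and all 10 were among the 14953 genes that passed the filter on low counts. The libraries are RNA sequencing of whole adrenals trimmed of adherent fat, each taken as 1 mouse, from female mice of 10 to 11 weeks on a mixed sv129-C57Bl/6 background. The study asked what follows in the adrenal cortex when β-catenin is stabilised in the zona glomerulosa (zG), the outer layer that makes aldosterone. The 6 control mice (Ctrl) are labelled with the genotype ASCre/+, a Cre recombinase expressed from the aldosterone synthase locus and therefore active in zG cells. The 6 βCat-GOF mice carry ASCre/+ together with Ctnnb1fl(ex3)/+, so that Cre removes exon 3 of 1 Ctnnb1 allele and leaves a β-catenin protein that resists degradation. By these genotype labels both groups carry the Cre allele, although the titles and the study's text call the controls wild type, and the sources do not settle whether the controls carry Cre. Neither genotype targets macrophages. Labels of all control mice begin with 1367, those of 5 βCat-GOF mice with 1369 and that of the other with 1387, so whatever these numbers stand for cannot be told apart from genotype.

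Resident macrophages settle in tissues before birth or arrive later as monocytes, and they take up debris, lipid and dying cells. They depend on signals through the CSF1 receptor. In many tissues they fall into perivascular cells rich in Lyve1, Folr2, Cd163 and Mrc1, and into cells rich in Cx3cr1 and antigen-presentation genes. In whole-tissue RNA, fewer macrophages and less of a transcript per macrophage cannot be told apart.

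Library totals ranged from 14090378 to 25625494 counts in Ctrl and from 13484675 to 24951480 in βCat-GOF (two-sided exact permutation p = 0.777, n = 6 and 6). Adrenal identity was clear, since Star, the cholesterol carrier of steroid synthesis, had at least 236688 normalized counts in every mouse. Ctnnb1 itself had a mean of 21625 ± 858 normalized counts in Ctrl and 21397 ± 1151 in βCat-GOF (SD, n = 6 each), which does not check the genotype because most of the transcript lies outside exon 3. Along the first principal component of all tested genes, which held 28.7% of the variance, βCat-GOF mouse 1 scored -15.2, inside the control range of -35.7 to -3.30, and βCat-GOF mouse 2 scored 6.04. The other 4 βCat-GOF mice scored 24.8 to 45.9. In 3 pairs the labels share a stem (Ctrl mice 1 and 2, Ctrl mice 3 and 4, βCat-GOF mice 1 and 2). These pairs differed beyond counting noise, with a chi-square per degree of freedom of 41.9 to 45.8, inside the 16.8 to 145 of the 27 pairs within a group that share no stem. They are therefore not 1 library deposited again, but the labels do not say whether a shared stem marks separate mice or samples of the same mouse. Each library was counted as 1 mouse in n, and results with these libraries summed are given beside the calls.

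Most of the 10 genes were lower in βCat-GOF adrenals, but few passed the test. Ms4a7 and Cd84 were called lower, and no member was called higher. A gene was called when edgeR's quasi-likelihood test gave a Benjamini-Hochberg adjusted p under 0.05 over all tested genes, with a fold change above 1.4 and a base mean (the mean normalized count over the 12 mice) above 100. The 2 called members compare with 0.869% of all tested genes called lower at the same limits, and 1.48% were called higher. By edgeR's adjusted p alone, with no limit on fold or base mean, 3 members were lower (Ms4a7, Cd84 and Mrc1), against 1.52% of all tested genes. At an unadjusted p under 0.05, 6 members were lower (also Aif1, Tyrobp and Cx3cr1) against 10.7% of all tested genes, and 1 member, Lyve1, was higher against 9.73%. The median log2 fold change (βCat-GOF over Ctrl) of the members was -0.50, while that of all tested genes was 0.00011, and 8 members had a negative value while 2, Csf1r and Lyve1, had a positive one.

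**Figure D1:**
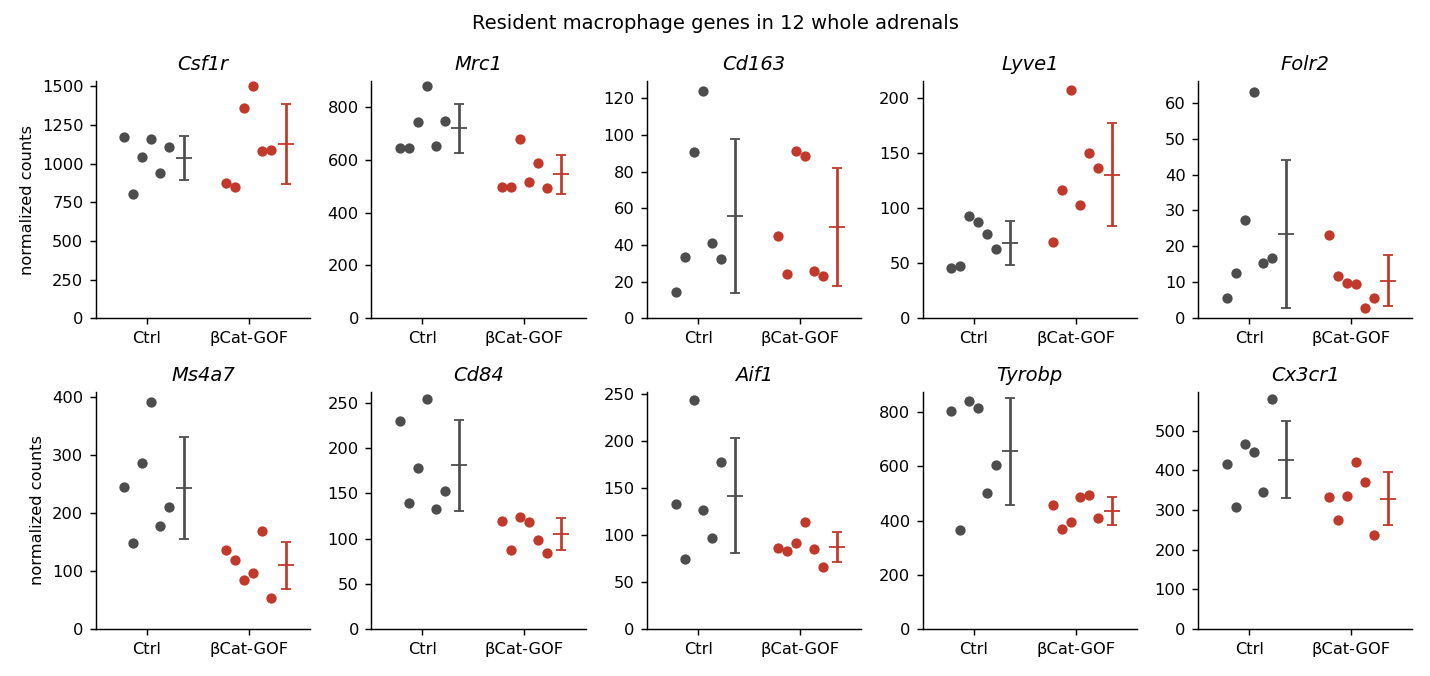
Normalized counts (vertical axes, each from 0) of each gene in the 6 Ctrl (grey) and 6 βCat-GOF (red) adrenals, 1 point per mouse in the order of mouse number, with the mean and SD beside the points. For Cd84 every βCat-GOF point lies under every Ctrl point, Lyve1 is the gene with most βCat-GOF points above the controls, and Csf1r points overlap.

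Csf1r is the receptor for CSF1 and IL-34 on which macrophage survival depends. Its normalized counts ran from 806 through a median of 1074 to 1169 in Ctrl, and from 847 through 1084 to 1499 in βCat-GOF. The groups overlap, and only βCat-GOF mice 3 and 4 lie above every control. Its log2 fold change was 0.11 (SE 0.14), with edgeR's adjusted p = 0.718. With 1 surrogate variable in the fit the sign turned, to a log2 fold change of -0.07. Of the Csf1r exon bases, 15.1% also lie in exons of Hmgxb3 on the opposite strand, and reads there cannot be assigned if the counting ignored strand.

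Of the 4 uptake receptors none was called, and they had values on both sides of 0. Mrc1, the mannose receptor CD206, ran from 644 through 698 to 878 normalized counts in Ctrl and from 494 through 508 to 678 in βCat-GOF. All but βCat-GOF mouse 3 were below the lowest control. The fitted log2 fold change of Mrc1 was -0.41 (SE 0.11), with edgeR's adjusted p = 0.0495, a fold of 0.754, which is less than a 1.4-fold fall.

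Cd163, the receptor that clears haemoglobin bound to haptoglobin, was low and scattered. It ran from 14.1 through 37.3 to 124 normalized counts in Ctrl and from 23.0 through 35.2 to 91.3 in βCat-GOF, so that the groups cover much the same span. Its log2 fold change was -0.20 (SE 0.51), with edgeR's adjusted p = 0.869. The sign turned to 0.20 without Ctrl mouse 4.

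Folr2, a folate receptor of perivascular macrophages, was the member with fewest counts. It ran from 5.62 through 16.02 to 63.0 normalized counts in Ctrl, and from 2.96 through 9.67 to 23.2 in βCat-GOF. The top control, mouse 4, stands well above the next one. For Folr2 the log2 fold change was -1.11 (SE 0.55), with edgeR's adjusted p = 0.276, and it was -0.53 in the fit without Ctrl mouse 4. Exons of the antisense gene Gm10602 cover 63.1% of the Folr2 exon bases, so Folr2 counts are uncertain if strand was ignored.

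Ctrl mouse 4 was the highest control for Mrc1, Cd163, Folr2, Ms4a7 and Cd84. Adipoq, the adipocyte hormone adiponectin, was also highest in that mouse, at 1935 normalized counts against a control median of 457 and 122 to 566 in βCat-GOF. Summed over the 7 adipocyte markers, of which 6 were tested and 0 were called in either direction by edgeR or passed an adjusted p of 0.05, the level was 129 to 491 CPM (counts scaled to a common library size) in Ctrl and 151 to 413 in βCat-GOF. With log2 CPM of Adipoq as a covariate, added after the data were seen, Cd163 had a log2 fold change of 0.17 and Folr2 of -0.71. Any part of remaining fat in the member values was not tested beyond this fit.

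Lyve1, a hyaluronan receptor shared by perivascular macrophages and lymphatic endothelium, was the member with the largest positive value. It ran from 45.9 through 69.6 to 93.0 normalized counts in Ctrl and from 69.6 through 127 to 208 in βCat-GOF. All but βCat-GOF mouse 1 were above the highest control. The log2 fold change of Lyve1 was 0.91 (SE 0.26), a fold of 1.88, with edgeR's adjusted p = 0.0702 and a base mean of 99.7, so that it missed both the adjusted p and, narrowly, the level required for a call. Without βCat-GOF mouse 1 it passed both (log2 fold change 1.05, edgeR's adjusted p = 0.0217). With DESeq2 on all mice Lyve1 had a log2 fold change of 0.92 (adjusted p = 0.0121), and only its base mean kept it from a call.

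Markers of lymphatic endothelium, which also makes Lyve1, mostly had values under 0. Of 8 listed, 7 were tested, 6 had a negative log2 fold change, and 1, Sema3d, a secreted guidance cue, was called lower (-0.62, edgeR's adjusted p = 0.0384). Prox1, the transcription factor that specifies lymphatic vessels, had a log2 fold change of -0.21 with edgeR's adjusted p = 0.532, and Flt4, the receptor VEGFR-3, had -0.07 with edgeR's adjusted p = 0.793. Ccl21a had no count in any mouse. The summed level of the list was 109 to 156 CPM in Ctrl and 89.0 to 138 in βCat-GOF. That sum follows mainly Prox1 and Flt4, with control means of 1472 and 655 normalized counts. Pdpn, Reln and Mmrn1 had 61.4, 27.8 and 19.3. Whether the Prox1 and Flt4 transcripts come from lymphatic endothelium was not tested.

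Ms4a7 (chr19:11321039-11336146 on GRCm38, minus strand), a membrane protein of macrophages with several membrane-spanning stretches, had the larger fitted fall of the 2 called members. It ran from 148 through 228 to 391.8 normalized counts in Ctrl and from 52.8 through 107 to 169 in βCat-GOF. The groups touch only where βCat-GOF mouse 5 exceeds Ctrl mouse 2, the lowest control. The log2 fold change of Ms4a7 was -1.15 (SE 0.28), a fold of 0.450, with edgeR's adjusted p = 0.0380.

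Cd84 (chr1:171839697-171890718, plus strand), a self-binding receptor of the SLAM family, was the member whose groups did not overlap. It ran from 133 through 165 to 254 normalized counts in Ctrl, and from 83.8 through 109 to 124 in βCat-GOF. Every βCat-GOF mouse was thus below every control, as was true of 1.16% of all tested genes. The log2 fold change of Cd84 was -0.79 (SE 0.19), a fold of 0.580, with edgeR's adjusted p = 0.0367.

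In edgeR's fit both calls rest close to the threshold. DESeq2 on all mice gave smaller adjusted p-values, 0.00149 for Ms4a7 and 0.00253 for Cd84. When each mouse was left out in turn, Ms4a7 kept its call in 4 of 12 fits (edgeR's adjusted p from 0.0279 to 0.0866) and Cd84 in 5 of 12 (0.0313 to 0.0840), with negative log2 fold changes throughout, -1.31 to -0.96 and -0.86 to -0.66. Both lost the call without Ctrl mouse 1, 3, 4 or 6 and without βCat-GOF mouse 2 or 6, Ms4a7 also without βCat-GOF mouse 3 or 4, and Cd84 also without βCat-GOF mouse 5. Neither was called when libraries sharing a label stem were summed, nor with Adipoq as a covariate, while both were called without βCat-GOF mice 1 and 2.

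Start-site sequences are shown for the 3 members with an adjusted p under 0.05. RefSeq promoter windows on GRCm38.p6, 250 bases before to 50 after a start site, were found for 7 of the 10 members. Capitals mark GAGGAA or its reverse complement TTCCTC, the core letters of sites for PU.1, the master transcription factor of myeloid cells; matches on both strands were searched. Of all 32851 windows, 28.3% hold the letters, and 4 of the 9 member windows do. A match is a run of letters only. For Cd84 the window is chr1:171839447-171839746 on the plus strand, for Ms4a7 it is chr19:11336097-11336396 on the minus strand, and for Mrc1 chr2:14229164-14229463 on the plus strand.
Cd84: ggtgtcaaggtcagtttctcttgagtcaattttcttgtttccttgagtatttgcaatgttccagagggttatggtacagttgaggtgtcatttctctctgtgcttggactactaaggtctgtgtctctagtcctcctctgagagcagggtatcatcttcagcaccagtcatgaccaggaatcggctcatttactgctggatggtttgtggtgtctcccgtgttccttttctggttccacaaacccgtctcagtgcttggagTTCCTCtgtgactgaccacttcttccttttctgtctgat
Ms4a7: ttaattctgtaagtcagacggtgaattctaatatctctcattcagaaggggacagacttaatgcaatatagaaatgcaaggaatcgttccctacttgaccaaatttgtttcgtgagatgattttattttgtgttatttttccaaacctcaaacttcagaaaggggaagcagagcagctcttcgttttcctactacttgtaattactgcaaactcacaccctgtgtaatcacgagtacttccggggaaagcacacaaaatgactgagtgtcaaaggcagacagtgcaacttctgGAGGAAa
Mrc1: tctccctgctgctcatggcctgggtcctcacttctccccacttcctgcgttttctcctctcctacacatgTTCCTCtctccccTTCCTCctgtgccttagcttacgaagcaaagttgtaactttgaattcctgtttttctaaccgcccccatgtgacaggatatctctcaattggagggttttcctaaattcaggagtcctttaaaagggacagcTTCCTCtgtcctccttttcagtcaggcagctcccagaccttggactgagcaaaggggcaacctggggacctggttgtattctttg
The Cd84 window has 1 match and so has that of Ms4a7, both after the start site, while Mrc1 has 3, all before it. The Ms4a7 window shown belongs to the outermost start site, and the window of its inner start site has no match.

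Tyrobp, the adaptor DAP12 that carries ITAM signals for receptors such as TREM2, ran from 365 through 704 to 840 normalized counts in Ctrl and from 368 through 434 to 494 in βCat-GOF. All controls but mouse 2, the lowest of all 12, were above every βCat-GOF mouse. For Tyrobp the fit gave a log2 fold change of -0.60 (SE 0.18), with edgeR's adjusted p = 0.0901. Without Ctrl mouse 2 it passed (-0.72, edgeR's adjusted p = 0.0212), as it did with DESeq2 on all mice (adjusted p = 0.0353).

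Aif1, the actin-binding protein IBA1 used to stain macrophages, ran from 74.2 through 130 to 244 normalized counts in Ctrl and from 65.4 through 85.3 to 114 in βCat-GOF. The groups overlap, and controls are far more spread, with a coefficient of variation of 42.9% against 17.9%. Aif1 had a log2 fold change of -0.71 (SE 0.25), with edgeR's adjusted p = 0.142.

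Cx3cr1, the fractalkine receptor, ran from 308 through 431 to 581 normalized counts in Ctrl and from 237 through 334 to 422 in βCat-GOF. The groups overlap over much of their span. Cx3cr1 had a fitted log2 fold change of -0.38 (SE 0.17), with edgeR's adjusted p = 0.219.

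**Figure D2:**
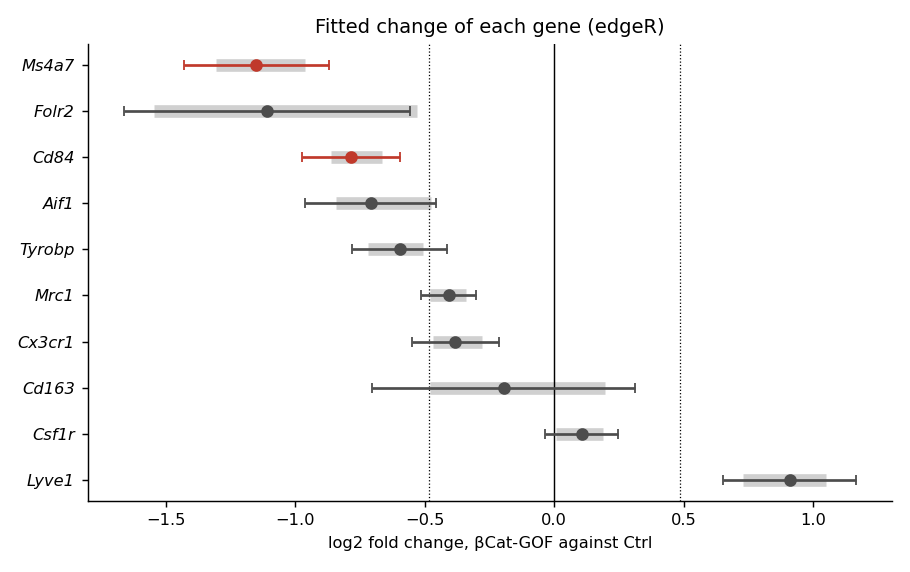
Fitted log2 fold change (βCat-GOF over Ctrl, horizontal axis) of each gene with its standard error (thin bars), red where the gene was called. Grey bands span the 12 fits that each leave out 1 mouse, and dotted lines mark a fold of 1.4. The band of Cd163 crosses 0. Those of Ms4a7 and Cd84 stay under the lower dotted line, as do those of Folr2 and Tyrobp, which were not called.

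Between mice, the members ranked partly alike. Ctrl mouse 2 was the lowest control for 6 of the 10 members and βCat-GOF mouse 6 was the lowest of its group for 6. βCat-GOF mouse 3 was the highest of its group for 4 members (Mrc1, Cd163, Lyve1 and Cd84), and βCat-GOF mouse 4 for 3 (Csf1r, Aif1 and Cx3cr1). As a description over 12 mice, with log2 CPM taken as deviations from the group mean, the closest pairs of members were Aif1 with Cx3cr1 (Pearson's r = 0.80), Cd163 with Folr2 (0.73) and Aif1 with Tyrobp (0.72). Lyve1 had the lowest mean r with the other members (0.24), and the mean r of the rest ran from 0.30 for Folr2 to 0.49 for Mrc1. These values share library and depth, and each mouse gives 1 point.

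**Figure D3:**
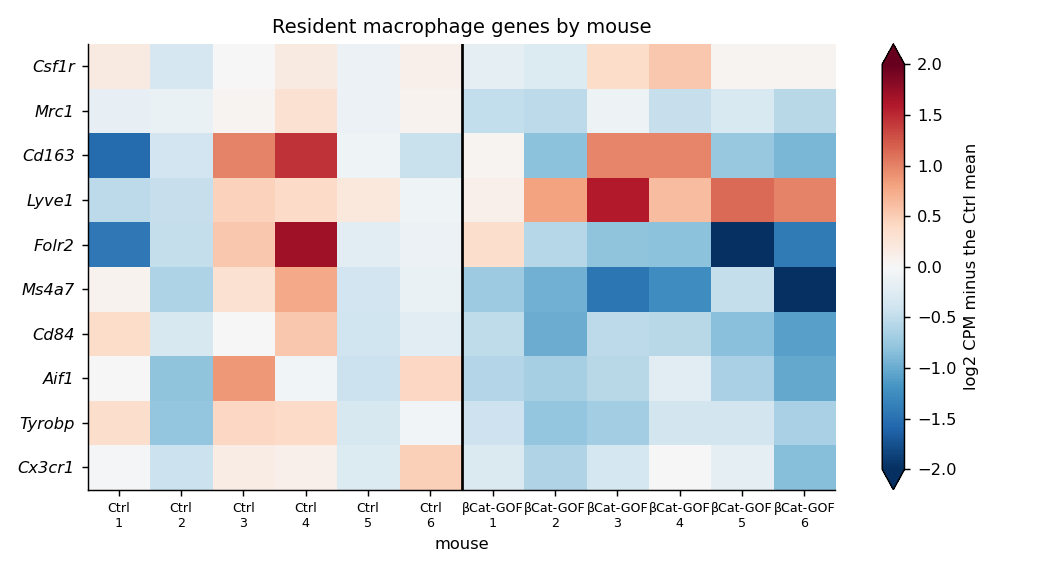
Each cell is the log2 CPM of 1 gene (rows) in 1 mouse (columns) minus the mean of the 6 Ctrl mice, with red above and blue below; colours stop at 2 in either direction. The 6 βCat-GOF columns are mainly blue from Ms4a7 down to Cx3cr1, and the Lyve1 row is mainly red in them.

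The members were also set against Csf1r within each library. This measure was chosen after seeing that the groups overlap for Csf1r, and all 9 ratios share its counts, so they are given as values with no test. Ms4a7 had 18.4 to 33.8 counts per 100 Csf1r counts in Ctrl and 4.86 to 15.6 in βCat-GOF. Cd84 had 13.8 to 21.96 in Ctrl and 7.72 to 13.7 in βCat-GOF. These 2 members did not overlap between groups, against 0.856% of all tested genes whose count per Csf1r count was lower in every βCat-GOF mouse. Tyrobp had 45.3 to 80.7 per 100 Csf1r counts in Ctrl and 29.2 to 52.4 in βCat-GOF, and Mrc1 had 55.2 to 79.9 and 34.5 to 58.6. Cd163, at 1.20 to 10.7 and 2.11 to 6.73, overlapped most.

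**Figure D4:**
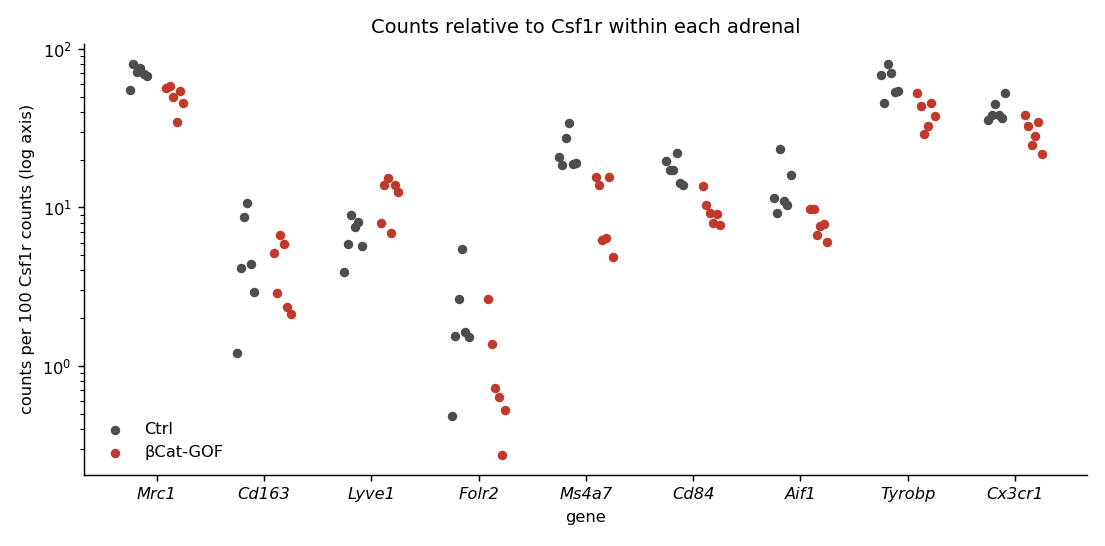
Counts of each gene per 100 Csf1r counts in the same library (vertical log axis), 1 point per mouse, Ctrl in grey and βCat-GOF in red. Ms4a7 and Cd84 separate, with lowest controls at 18.4 and 13.8 and highest βCat-GOF mice at 15.6 and 13.7, and the Lyve1 points run the other way.

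Per kilobase of exon, Tyrobp was the most abundant member in Ctrl at 49.1 ± 14.5 CPM per kb (SD, n = 6). Csf1r followed at 8.98 ± 1.19 and Mrc1 at 5.65 ± 0.73 CPM per kb. The lowest control for Tyrobp was above the highest for Csf1r, and the lowest for Csf1r was above the highest for Mrc1, at 7.04 and 6.92 CPM per kb. Further down, each neighbouring pair overlapped: Cx3cr1 (4.74 ± 1.06), Aif1 (4.63 ± 1.97), Ms4a7 (2.73 ± 0.99), Cd84 (1.45 ± 0.40), Lyve1 (1.18 ± 0.34), Folr2 (0.76 ± 0.67) and Cd163 (0.51 ± 0.39). In βCat-GOF Lyve1 stood at place 6, at 2.22 ± 0.77 CPM per kb, ahead of Ms4a7 at 1.22 ± 0.46 and Cd84 at 0.84 ± 0.15.

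Ligands and partners of the members were then read from lists. Of the 10 genes of the CSF1 receptor axis, 9 were tested and edgeR called 0 in either direction, also at an unadjusted p under 0.05. Csf1, the main ligand, had a log2 fold change of -0.11 (edgeR's adjusted p = 0.661), and Il34, the other ligand, had 0.37 (edgeR's adjusted p = 0.284). The fractalkine ligand Cx3cl1 was called higher. It ran from 717 through 853 to 1041 normalized counts in Ctrl and from 1031 through 1607 to 2369 in βCat-GOF, with all but βCat-GOF mouse 3 above the highest control. The log2 fold change of Cx3cl1 was 0.92 (SE 0.19), with edgeR's adjusted p = 0.0168, while that of its receptor Cx3cr1 was negative and not called. The 6 chemokine, complement and purine receptors listed with it had negative values and were not called, among them Ccr2, the monocyte homing receptor, at -0.58.

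TYROBP partners and ITAM signalling genes gave no call in 13 tested (0 by edgeR, 4 lower at an unadjusted p under 0.05), and 11 had negative values with a median of -0.35. Trem2, the lipid-sensing receptor that signals through TYROBP, had a log2 fold change of -0.66 (edgeR's adjusted p = 0.193). Fcer1g, an adaptor of Fc receptors, had -0.31, Plcg2 -0.20 and the kinase Syk -0.44, none of them called.

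For Cd84, the other SLAM family genes had 6 tested and 0 called by edgeR, with 3 lower at an unadjusted p under 0.05. Ly9, a SLAM receptor of lymphocytes and myeloid cells, ran from 59.3 to 135 normalized counts in Ctrl and from 21.8 to 52.2 in βCat-GOF with no overlap. Its log2 fold change was -1.08 (SE 0.24), with edgeR's adjusted p = 0.0278, but its base mean of 67.8 was under 100. Cd48, the SLAM ligand, had -0.79 (edgeR's adjusted p = 0.0655).

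No other Ms4a gene was called. Of 13 listed, 11 were in the table and 7 were tested, edgeR called 0 in either direction, also at an unadjusted p under 0.05, and the median was -0.15. The genes with most counts, Ms4a6c, Ms4a6b and Ms4a6d, had log2 fold changes of -0.03, 0.01 and -0.15. Folate transporters and receptors likewise had no call in 4 tested by edgeR, also at an unadjusted p under 0.05, with Slc46a1 at -0.06. Scavenger and endocytic receptors had 10 tested and 0 called by edgeR (4 lower at an unadjusted p under 0.05), all 10 with negative values and a median of -0.24. Lrp1, a large lipoprotein receptor, had -0.36 and Cd36, a fatty acid receptor, had -0.07. Timd4 and Vsig4, markers of long-lived macrophages, were too low to test, at no more than 20.1 and 10.8 normalized counts in any mouse.

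A pair of broader lists was set up for the perivascular and the antigen-presenting kind. Whether the transcripts counted for these lists come from macrophages of either kind was not tested. The 16 Lyve1-high genes other than the members had 13 tested and 0 called by edgeR, with 1 lower and 2 higher at an unadjusted p under 0.05 and a median of -0.11. The 14 Cx3cr1-high genes had 14 tested, 10 with negative values and a median of -0.38. Itgax, the integrin CD11c, was the 1 called lower: 143 through 219 to 261 normalized counts in Ctrl against 58.5 through 80.2 to 109 in βCat-GOF, with no overlap. Its log2 fold change was -1.39 (SE 0.20), with edgeR's adjusted p = 0.00204. The class II chain genes Cd74 and H2-Aa, also of dendritic and B cells, had -0.47 and -0.66 and were not called.

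Of 30 general macrophage markers, 26 had negative log2 fold changes, with a median of -0.34, and 3 were called lower. These were Adgre1, the F4/80 antigen (-0.78, edgeR's adjusted p = 0.0459), Mpeg1, the pore protein perforin-2 (-0.56, edgeR's adjusted p = 0.0398) and C3ar1, the complement C3a receptor (-0.85, edgeR's adjusted p = 0.0468). The most abundant of the list, Lyz2, encoding lysozyme, had -0.34 and was not called. The summed level was 1320 to 2030 CPM in Ctrl and 1056 to 1529 in βCat-GOF. Among macrophage transcription factors, Zeb2 had -0.11 and Irf8 0.07, and neither was called.

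**Figure D5:**
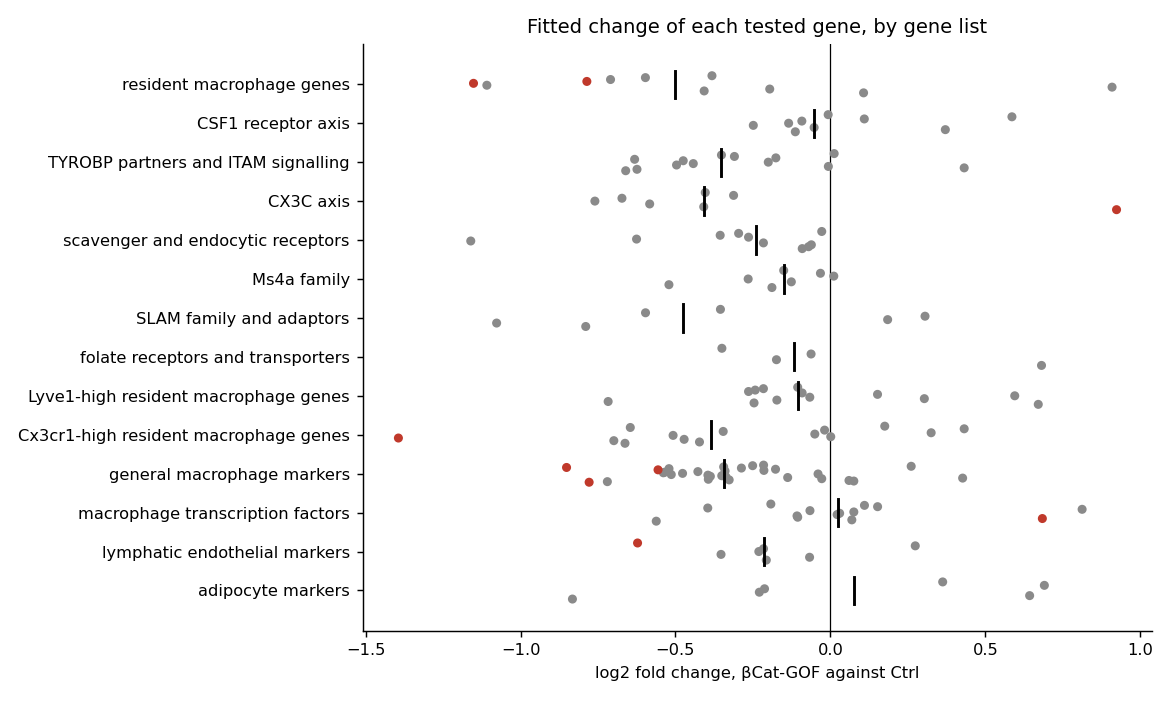
Fitted log2 fold change (βCat-GOF over Ctrl, horizontal axis) of each tested gene, grouped by list; red points were called and black bars are list medians. The medians of the resident macrophage genes and general macrophage markers are -0.50 and -0.34, that of the CSF1 receptor axis is -0.05.

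Genes of lipid-laden macrophages went both ways. Of 15 tested, Gpnmb, Mmp12 and Itgax were called lower and Spp1, osteopontin, higher (2.66, SE 0.70, edgeR's adjusted p = 0.0498). Itgax is the same gene as in the Cx3cr1-high list, so it is no separate result. Spp1 ran from 277 through 453 to 1453 normalized counts in Ctrl and from 117 through 3727 to 10278 in βCat-GOF. All but 1 βCat-GOF mouse were above the highest control for Spp1, and that mouse was below the lowest. Gpnmb, a lysosomal glycoprotein of foam cells, ran from 30.5 through 390 to 1303 normalized counts in Ctrl and from 8.04 through 16.8 to 57.2 in βCat-GOF, with a log2 fold change of -4.38 (SE 0.84) and edgeR's adjusted p = 0.0116. Ctrl mice 3 and 6 lie within the βCat-GOF range for Gpnmb. Mmp12, the macrophage elastase, did not overlap between groups and had -2.06 (edgeR's adjusted p = 0.0295).

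Other cell types show which genes of other leukocytes moved beside the members. Of 13 tested monocyte markers 8 had negative values, with a median of -0.12, and 1 was called higher, Chil3, a chitinase-like protein (3.37, SE 0.51, edgeR's adjusted p = 0.00317). Treml4, a TREM-like receptor of the same list named after its values were seen, was lower with no overlap (-1.74, edgeR's adjusted p = 0.0432), but its base mean of 17.5 was under 100. Of 11 tested dendritic cell markers 7 had negative values, with a median of -0.65, further under 0 than the -0.50 of the members. From this list 1 gene was called lower, Fscn1, the actin bundler fascin (-0.88, edgeR's adjusted p = 0.00842). The summed level of the dendritic cell list was 67.7 to 97.4 CPM in Ctrl and 51.0 to 76.6 in βCat-GOF. EdgeR called 0 neutrophil, T and NK cell, B and plasma cell or mast cell markers (of 3, 6, 7 and 6 tested, with 0, 2, 1 and 1 lower and 0, 0, 0 and 2 higher at an unadjusted p under 0.05). Cd4, of the T and NK cell list and named after its values were seen, was lower (-1.35, edgeR's adjusted p = 0.0330), but its base mean of 16.9 was under 100. B and plasma cell markers summed to 78.2 to 144 CPM in Ctrl and 31.7 to 114 in βCat-GOF. Median log2 fold changes were -0.13 for neutrophil, -0.47 for T and NK cell, -0.30 for B and plasma cell and 0.38 for mast cell markers. Among adrenal cells, 4 of 8 zG markers were called higher, among them Agtr1b, an angiotensin receptor (1.55, edgeR's adjusted p = 0.00413), and the zG list summed to 1322 to 2026 CPM in Ctrl and 1785 to 3346 in βCat-GOF. Of 8 zona fasciculata and steroid markers 1 was called higher, Akr1b7, a detoxifying reductase (1.48, edgeR's adjusted p = 0.0458). No blood and sinusoidal endothelial, X-zone or medulla marker was called by edgeR (0 of 11, 3 and 6 tested, with 3, 0 and 0 lower and 1, 0 and 0 higher at an unadjusted p under 0.05). The share that any of these cell types has in the member values was not tested.

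As a description over 12 mice, the genes most like the members were those with the highest mean Pearson's r with the 10 members among 11424 genes with a base mean above 100, in log2 CPM as deviations from the group mean. Srsf9 led with a mean r of 0.63, followed by Ctsc, Foxo4 and H2afz at 0.62 each, and 1500011B03Rik and Lilra5 at 0.61. Tlr13, Gpn3, Npc2 and Laptm5 stood at 0.59 to 0.60. None of these 10 genes was called, and Laptm5 had the smallest edgeR adjusted p among them, 0.0491, with a log2 fold change of -0.48, just short of a fold of 1.4.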

How the data were processed

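The 12 whole-adrenal RNA libraries, each taken as 1 female mouse, were grouped by the genotype in the labels into 6 Ctrl and 6 βCat-GOF. The authors trimmed reads with cutadapt, aligned them to mm10 with STAR and counted unique reads per gene with featureCounts 1.4.4; the annotation release and whether strand was used are not given in the sources used here. The authors deposited counts for 39017 genes, and a normalized signal, the same counts after division by 1 factor per mouse; 966 genes there carry no symbol. All columns were mapped to mice, and 0 were left over. Symbols of 37607 genes were also matched by identifier to GENCODE M21 on GRCm38, the assembly of mm10, which gave exons and lengths.

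Counts were tested with edgeR 4.0.16 (TMM, filterByExpr, quasi-likelihood test, two-sided, no covariate) over all genes, with Benjamini-Hochberg adjustment over the 14953 tested. Normalized counts are counts divided by median-of-ratios size factors (DESeq2 1.42.0). CPM uses TMM factors, and log2 CPM a prior count of 2. Exon overlaps came from GENCODE M21. Near-identical copies were searched with blastn 2.17.0 (95% identity over 10% of the longest transcript), and the hits found, Hmgxb3 for Csf1r and Gm10602 for Folr2, are the overlapping genes named in the report. The members, lists, limits and most alternatives were chosen with earlier results of these data known. Named genes are the 10 members, from each list the called genes and at most 4 with most counts, and the 10 genes most like the members. Adipoq, Treml4 and Cd4 were added after their values were seen. A few genes that this rule names are not reported here. Of the listed genes, Ms4a4a, Ms4a14, Sh2d1b1 and Ighd matched no row. Scripts were tested on simulated data. Alternatives were DESeq2, its size factors, no filter, at least 10 counts in every mouse, adjusted p alone, 1 surrogate variable (sva 3.50.0), libraries sharing a label stem summed or left out, the mouse labelled 1387 left out, each mouse left out in turn, TMM for the normalized counts and the longest transcript for length; leaving out βCat-GOF mice 1 and 2 and the Adipoq covariate were added after seeing the data. Nothing in the labels says that libraries sharing a stem come from separate mice; if they do not, p-values over 12 libraries are too small. Totals of 13484675 to 25625494 counts leave counting noise large for Folr2, whose lowest count was 3.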

Additional observations from a re-analysis of the deposited data

How the results depend on the processing

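The count of members called lower was 2 in the reported fit, Ms4a7 and Cd84. It fell to 1 with 1 surrogate variable (Cd84 remained) and without the mouse labelled 1387 (Ms4a7 remained), and to 0 with libraries sharing a label stem summed, without the mice that repeat a stem, and with Adipoq as a covariate. Leaving out each mouse in turn gave 0 to 3 called lower, with 3 only without Ctrl mouse 2 (Tyrobp added), and 0 to 1 called higher, with 1, Lyve1, only without βCat-GOF mouse 1. Lyve1 was also the 1 gene called higher without the mice that repeat a stem (log2 fold change 1.05, edgeR's adjusted p = 0.0357). The count was 3 with DESeq2 and with the adjusted p alone, and 2 under the other scaling, both filters on low counts, and without βCat-GOF mice 1 and 2. Csf1r turned to -0.069 with 1 surrogate variable. Cd163 turned to 0.013 with stem-sharing libraries summed, to 0.0016 without βCat-GOF mice 1 and 2, to 0.17 with Adipoq as a covariate, and to 0.0066 and 0.20 without Ctrl mouse 3 and 4, in a range of -0.48 to 0.20 over the fits that each leave out 1 mouse; the cause was not tested for any of these. The median of the members ranged from -0.59 to -0.40 over all alternatives. With the longest transcript as length, 7 of 10 members kept their place by level. Folr2 did not pass the filter of 10 counts in every mouse. No paired analysis was possible because mouse numbers were given in accession order and pair no mice across groups.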
